A study of Mus musculus with 3 samples.

Results

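The TRAV12 family of TCR α chain V genes was examined in T cells from the sciatic nerves of neuropathic NOD.AireGW/+ mice, which carry 1 copy of a dominant mutant Aire allele (GW) on the NOD background and develop spontaneous autoimmune peripheral polyneuropathy. Members were the productive TRA contigs whose V gene name began with TRAV12 followed by a hyphen, D or N. They made up 259 of 3325 TRA rearrangements and were carried by 678 of the 5269 cells with a TRA. A rearrangement was 1 V gene, 1 nucleotide CDR3 and 1 J gene within a library, where the CDR3 is the loop spanning the V-J junction. CD45+ cells had been isolated from the nerves, the mice were female by the study's methods, and no age is given in the labels. Replicates 1 and 2 held 1 mouse each and replicate 3 pooled 2 mice, so that 3 libraries of 1 condition stood for 4 mice and no condition was compared with another. TCR libraries carry no marker transcripts, and the sorted cell type could not be checked against its defining genes here.

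The 3 libraries had 2374, 3555 and 705 cells with 34630, 41338 and 5142 unique molecular identifiers (UMIs) on their TCR contigs. Median UMIs per TRAV12 contig were 5, 3 and 2, against 5, 3 and 3 for other TRA contigs. Replicate 3 was the shallowest, and its shares carry the widest intervals. Of the cell barcodes, 10 occurred in more than 1 library, and 0 of them carried the same rearrangement in both. Intervals below are exact Clopper-Pearson 95% intervals and cover counting error only.

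TRAV12 genes, long known as mouse Vα8, encode the CDR1 and CDR2 loops of the α chain, which mostly touch the MHC molecule, while the V-J junction forms the CDR3, which mostly touches the peptide. The mouse α locus contains a repeated stretch, so that most TRAV12 members exist as closely related copies named with a D, an N or no letter. An α allele can rearrange again, replacing a first join by one between a more upstream V gene and a more downstream J gene. In the GRCm38 reference (strain C57BL/6J, GENCODE M21) the functional copies lie on the plus strand of chromosome 14, from TRAV12D-1 at chr14:52844465-52845041 through TRAV12D-2 at chr14:52915799-52916426 and TRAV12-1 at chr14:53538191-53538738 to TRAV12-3 at chr14:53621657-53622245. The mice are NOD, and their own copies may differ from this reference.

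The name TRAV12D-2 covered 2 different V regions. The annotations of replicates 2 and 3, but not that of replicate 1, give the V sequence from the first framework base to the base before the CDR3. The regions are shown whole because they are the germline-encoded part of the chains with the most used name. Each is named here by its CDR1 amino acids, each has 267 bases, and capitals mark the bases at which they differ.

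TTYSPF form: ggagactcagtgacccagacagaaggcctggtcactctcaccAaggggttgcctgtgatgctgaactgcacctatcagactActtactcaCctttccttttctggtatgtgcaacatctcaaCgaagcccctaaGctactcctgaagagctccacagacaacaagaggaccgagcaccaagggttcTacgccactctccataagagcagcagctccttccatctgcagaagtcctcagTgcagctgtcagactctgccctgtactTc

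TAYSTF form: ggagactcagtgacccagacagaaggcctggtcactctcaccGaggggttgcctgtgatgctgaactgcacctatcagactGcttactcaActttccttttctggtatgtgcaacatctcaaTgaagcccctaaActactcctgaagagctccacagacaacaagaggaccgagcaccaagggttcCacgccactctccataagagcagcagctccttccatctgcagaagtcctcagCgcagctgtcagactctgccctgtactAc

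They differed at 8 bases, which change 6 amino acids. Counted from 1 at the first base shown, with the base of the TTYSPF form first, these were A43G, A82G, C91A, C123T, G135A, T187C, T239C and T266A. A82G and C91A fall in the CDR1 and give T28A and P31T in the V region's own numbering. The TTYSPF form was identical to reference TRAV12D-2 and TRAV12N-2, and the TAYSTF form differed from both at 8 bases and from TRAV12-2 at 10. The forms had like numbers of rearrangements. The TTYSPF form had 35 rearrangements in 93 cells of replicate 2 and 5 in 6 cells of replicate 3, and the TAYSTF form had 35 in 72 cells and 6 in 9 cells. Both forms occurred in replicate 2, a library of 1 mouse. Whether they are separate gene copies or alleles was not tested, as no NOD sequence of the locus was used.

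The names TRAV12-3 and TRAV12D-3 gave the opposite picture, because the same V regions carried both names. These had the CDR1 TIYSNAF and came in a first form with 21 rearrangements in replicate 2 and 10 in replicate 3, and a second form with 11 and 0. They differed by C136T and G260C, which give R46W and G87A, and each was 7 bases from reference TRAV12D-3 and TRAV12N-3. The second form thus made up 34.4% of 32 rearrangements in replicate 2 and 0 of 10 in replicate 3, where a limit of 3 counts allows a share of up to 30%, and the difference was not tested. TRAV12-1 had the CDR1 TTYLTIA, 2 bases from its reference gene, and TRAV12D-1 had TTYSDVA, 4 bases from TRAV12D-1 and TRAV12N-1. All 6 V regions had the same CDR2, SSTDNKR. The split into forms was made after the sequences had been seen, and values below keep the deposited names unless a form is named.

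**Figure D1:**
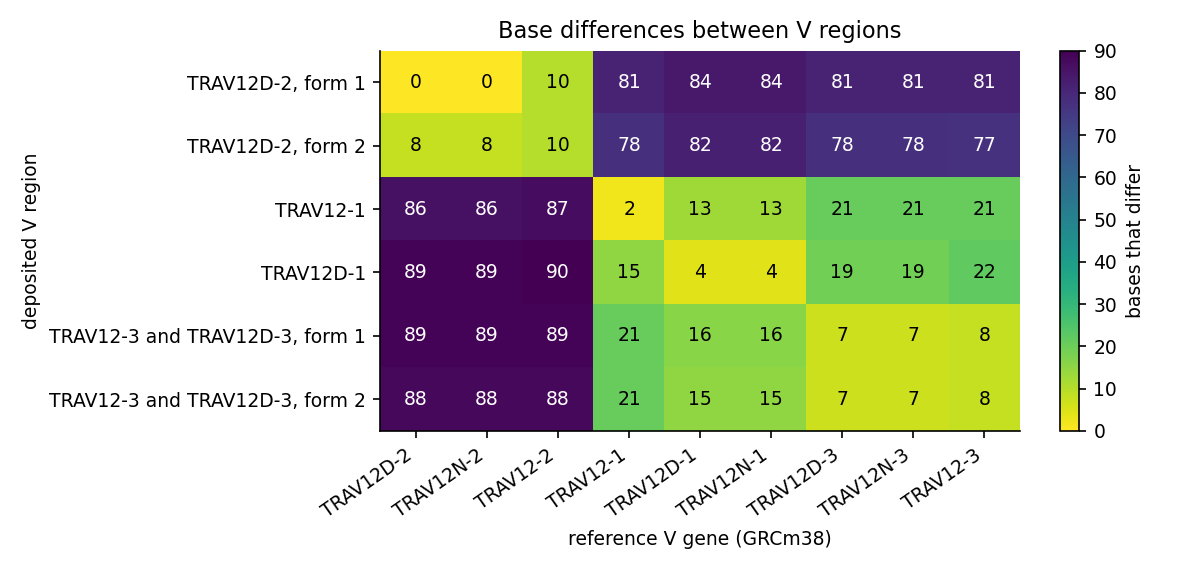
Number of bases (colour and printed digits) at which each of the 6 V regions of replicates 2 and 3 (rows) differed from each functional TRAV12 gene of the GRCm38 reference (columns). Form 1 of TRAV12D-2 is the TTYSPF form, with 0 differences from TRAV12D-2 and TRAV12N-2, and form 2 is the TAYSTF form, with 8.

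TRAV12 genes made up a like share of TRA rearrangements in every library. Replicate 1 had 8.20% (101 of 1231, interval 6.73% to 9.88%), replicate 2 had 7.59% (129 of 1700, 6.37% to 8.95%) and replicate 3 had 7.36% (29 of 394, 4.98% to 10.4%), or 7.72% ± 0.44 (SD, n = 3). It was the 6th most used of 19 TRAV families. The share of cells was less even. TRAV12 chains were found in 19.7% of the TRA-bearing cells of replicate 1 (392 of 1989), in 8.83% of those of replicate 2 (249 of 2819) and in 8.03% of those of replicate 3 (37 of 461). Replicate 1 stood above the other libraries. Without the 266 cells of a single rearrangement, its share was 7.31% (126 of 1723, 6.13% to 8.65%).

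TRAV12D-2 was the most used of the 5 names that occurred. It made up 3.74%, 4.12% and 2.79% of the TRA rearrangements of replicates 1, 2 and 3 (46, 70 and 11), or 3.55% ± 0.68 (SD, n = 3). TRAV12-3 made up 2.92%, 1.71% and 2.03% (36, 29 and 8), or 2.22% ± 0.63. TRAV12D-2 lay above TRAV12-3 within each library, although their ranges over libraries overlap. TRAV12-1 followed at 0.650%, 0.941% and 1.52% (8, 16 and 6), with a range below that of TRAV12-3. TRAV12D-1 stood at 0.731%, 0.529% and 0.508% (9, 9 and 2), overlapping TRAV12-1, and TRAV12D-3 at 0.162%, 0.294% and 0.508% (2, 5 and 2), equal to TRAV12D-1 in replicate 3. Neighbours among these last genes do not differ beyond their spread. No contig was named TRAV12-2 or any TRAV12N copy. This order is by deposited name. Counted by V region, the TTYSPF and TAYSTF forms had 35 rearrangements each in replicate 2, against 21 and 11 for the 2 TIYSNAF forms. In replicate 3 they had 5 and 6, against 10 and 0.

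By cells the order was the same at the top. TRAV12D-2 chains were in 320, 164 and 15 cells of replicates 1, 2 and 3, and TRAV12-3 chains in 48, 36 and 11. TRAV12-1 was in 9, 30 and 6 cells, TRAV12D-1 in 15, 16 and 3, and TRAV12D-3 in 2, 5 and 2. Whether a gene's share of rearrangements differed between libraries was tested with an exact Freeman-Halton test. Of 31 TRAV genes tested, 0 (0%) passed after Benjamini-Hochberg adjustment and 1 had an unadjusted p under 0.05. The 2 TRAV12 genes frequent enough for this test gave adjusted p = 0.877, with exact unadjusted p = 0.092 for TRAV12-3 and 0.478 for TRAV12D-2.

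**Figure D2:**
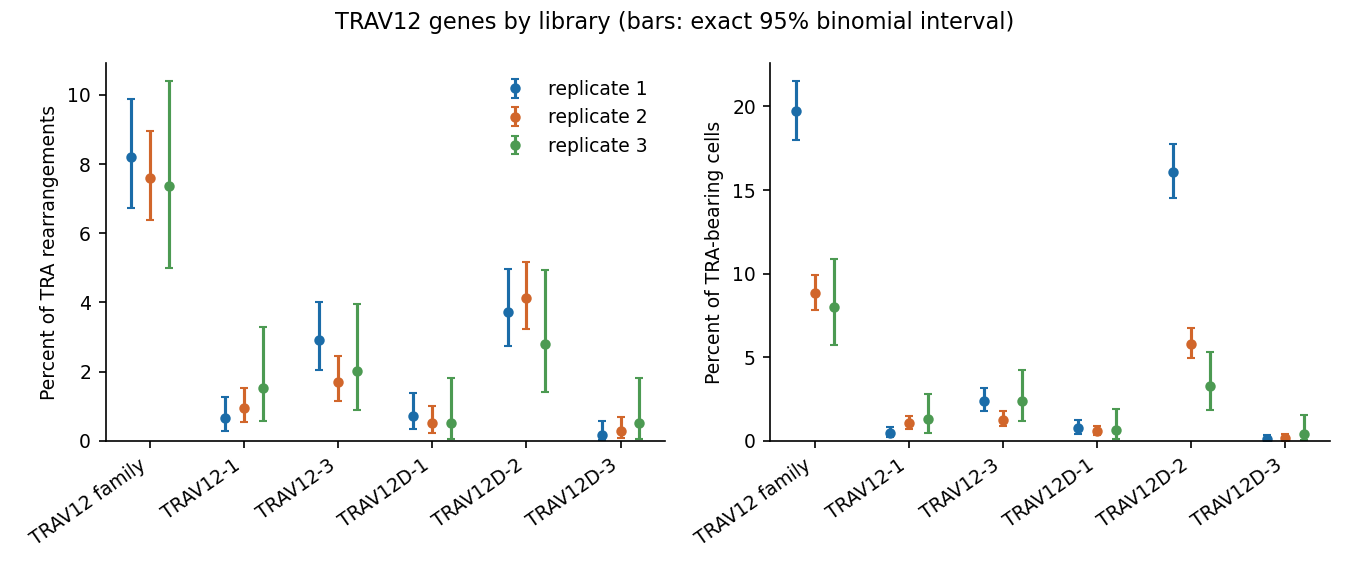
Percent of TRA rearrangements (left) and of TRA-bearing cells (right) with each TRAV12 gene, 1 point per library with its exact 95% binomial interval. The rearrangement shares of the family lie between 7.36% and 8.20%, while the cell share of replicate 1, 19.7%, lies above those of the other libraries.

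No TRAV12 gene passed the test for a share of expanded rearrangements different from that of other TRAs. A rearrangement found in more than 1 cell was counted as expanded, which held for 15.8% of TRAV12 rearrangements in replicate 1 (16 of 101), 24.0% in replicate 2 (31 of 129) and 17.2% in replicate 3 (5 of 29), against 22.2%, 23.4% and 13.97% of other TRAs. The exact test stratified by library, run over all TRAV genes with at least 10 rearrangements, called 0 of 55 genes (0%) after adjustment, with 2 at an unadjusted p under 0.05, neither of them a TRAV12 gene. TRAV12D-2 had 33 expanded rearrangements where 27.9 were expected from each library's own rate (exact p = 0.274, adjusted p = 0.896). TRAV12-3 had 10 against 15.7 (exact p = 0.112, adjusted p = 0.577). TRAV12-1 had 5 against 6.33 and TRAV12D-1 had 4 against 4.34. The 9 rearrangements named TRAV12D-3 were too few for the test. Under that name each was in 1 cell, but 3 of them had the same nucleotide CDR3 and J gene as a TRAV12-3 rearrangement of their library, so that a clone can be split between the names. The unit of these tests is the rearrangement, so their p-values do not measure variation between mice. Expansion was counted by the TRA alone, so cells with the same TRA and different TRBs count together.

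Expansion in cells was uneven between libraries. In replicate 1, 85 of 101 TRAV12 rearrangements were found in 1 cell and 1 in over 20. In replicate 2 these numbers were 98 of 129 and 1, with 8 more of 6 to 20 cells, and in replicate 3 the largest had 4 cells. The largest rearrangement of each library used TRAV12D-2 each time. Their nucleotide CDR3s are shown because they are the most expanded chains, with capitals for bases that match neither the reference end of a TRAV12 gene nor the reference J gene. The reference is C57BL/6J, so a capital can be a base at which the NOD gene differs as well as one added at the junction.

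Replicate 1, TRAJ16, 266 cells: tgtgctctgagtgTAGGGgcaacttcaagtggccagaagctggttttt

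Replicate 2, TRAJ26, 25 cells: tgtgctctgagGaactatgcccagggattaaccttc

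Replicate 3, TRAJ31, 4 cells: tgtgcCCTcaataacagaatcttcttt

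The first made up 13.4% of the TRA-bearing cells of replicate 1 (interval 11.9% to 14.9%) and 67.9% of its TRAV12 cells, at a median of 6 UMIs per contig, and its TRB was TRBV19 with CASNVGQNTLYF. The second, with the amino acids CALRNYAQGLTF, made up 0.887% of the TRA-bearing cells of replicate 2 (0.575% to 1.31%). In 22 of its 25 cells it was found with TRBV2 and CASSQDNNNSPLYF, and its V region was the TAYSTF form. The third encodes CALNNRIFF, the shortest loop of the family, and was also joined to the TAYSTF form. Of the CDR3s of the TAYSTF form, 87.8% began with tgtgctctg, and of those of the TTYSPF form 82.5% began with tgtgctttg. All 60 TRAV12D-2 rearrangements of replicate 2 with either start, and all 9 of replicate 3, had the form that goes with it. The largest clone of replicate 1 had the first start, but its V region is not given in the annotation.

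Next in replicate 1 were TRAV12-3 with TRAJ23 (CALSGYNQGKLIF) and TRAV12D-1 with TRAJ40 (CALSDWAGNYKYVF), at 7 cells each. The most frequent TRB was in 5 of the 7 cells of the first, among 3 TRBs seen. For the second it was in 4 of the 7, among 5 TRBs seen, so that such cells need not be a single clone. In replicate 2, a TRAJ32 rearrangement of TRAV12D-2 had 18 cells and a TRAJ34 one (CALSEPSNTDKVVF) had 13, both with the TTYSPF form. In replicate 3, a TRAJ39 rearrangement of TRAV12-3 had 3 cells, and 3 others had 2.

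**Figure D3:**
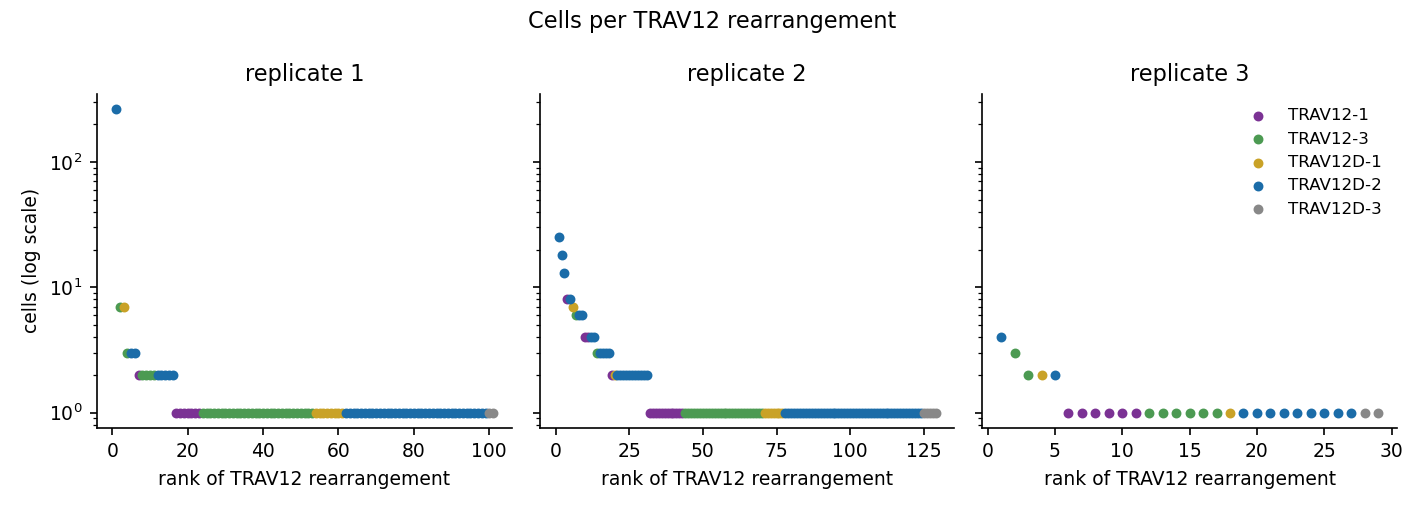
Cells per TRAV12 rearrangement (log axis) against its rank within each library, 1 point per rearrangement, coloured by gene, with ties ordered by gene name. In each library the highest point is a TRAV12D-2 rearrangement, of 266, 25 and 4 cells, and most points lie at 1 cell.

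TRAV12 chains used 41 of the 42 TRAJ genes seen, and 0 of their 28 tested TRAJ partners differed from expectation in the exact stratified test after adjustment. Over all TRAV families 1 of 258 pairs (0.388%) was called, with 32 at an unadjusted p under 0.05, 6 of them TRAV12 pairs. The most frequent partners were TRAJ23 with 20 rearrangements, TRAJ32 with 16 and TRAJ31 with 12, followed by TRAJ9, TRAJ18, TRAJ22, TRAJ26 and TRAJ34 with 11 each. TRAJ23 had 4, 14 and 2 rearrangements in replicates 1, 2 and 3 against 12.6 expected in all (exact p = 0.034, adjusted p = 0.366), and was higher than in other families in 2 of 3 libraries. TRAJ32 had 6, 9 and 1 against 8.89 (exact p = 0.019, adjusted p = 0.289). TRAJ9 had 5, 5 and 1 against 5.15 (exact p = 0.016, adjusted p = 0.289). TRAJ32 and TRAJ9 lay above other families in each library, yet neither passed the adjusted threshold. In the other direction, TRAJ49 had 2, 1 and 0 rearrangements against 10.8 (exact p = 0.0085, adjusted p = 0.220). TRAJ30 and TRAJ43 had 2 each, against 7.51 and 7.08. All 3 genes were lower in each library, and none passed after adjustment.

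TRAV12 rearrangements had a lower mean TRAJ number than other TRAs in 2 of 3 libraries. TRAJ genes are numbered so that high numbers lie nearest to the V genes. The mean TRAJ number of TRAV12 rearrangements in replicates 1, 2 and 3 was 29.05, 28.85 and 34.21, against 34.1, 33.3 and 33.3 for other TRAs. The difference was -5.09 with a standard error of 1.56 in replicate 1 and -4.45 with 1.27 in replicate 2, and 0.86 with 2.54 in replicate 3, from 101, 129 and 29 TRAV12 rearrangements. Over the 3 libraries it was -2.89 ± 3.27 (SD, n = 3), with p = 0.50 in the exact permutation test of sign changes, whose smallest p for 3 libraries is 0.25. TRAJ genes numbered below 30 were used by 51.5%, 51.9% and 37.9% of TRAV12 rearrangements and by 36.1%, 37.6% and 36.7% of other TRAs.

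By gene, the mean TRAJ number of TRAV12D-2 was 26.9, 27.8 and 29.5 in replicates 1, 2 and 3, that of TRAV12-3 was 32.1, 27.9 and 33.4, and that of TRAV12-1 was 31.4, 32.5 and 41, the last from 6 rearrangements. These differences were not tested. Within TRAV12D-2, the TTYSPF form had a mean TRAJ number of 23.9 in replicate 2 and 26.8 in replicate 3, and the TAYSTF form one of 31.7 in each. In replicate 1, where only the CDR3 start could stand in for the form, the means were 19.6 for 16 rearrangements and 31.7 for 23, and 7 rearrangements had neither start. The TTYSPF mean was lower in each library. This comparison was made after the forms were seen and is given without a test.

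**Figure D4:**
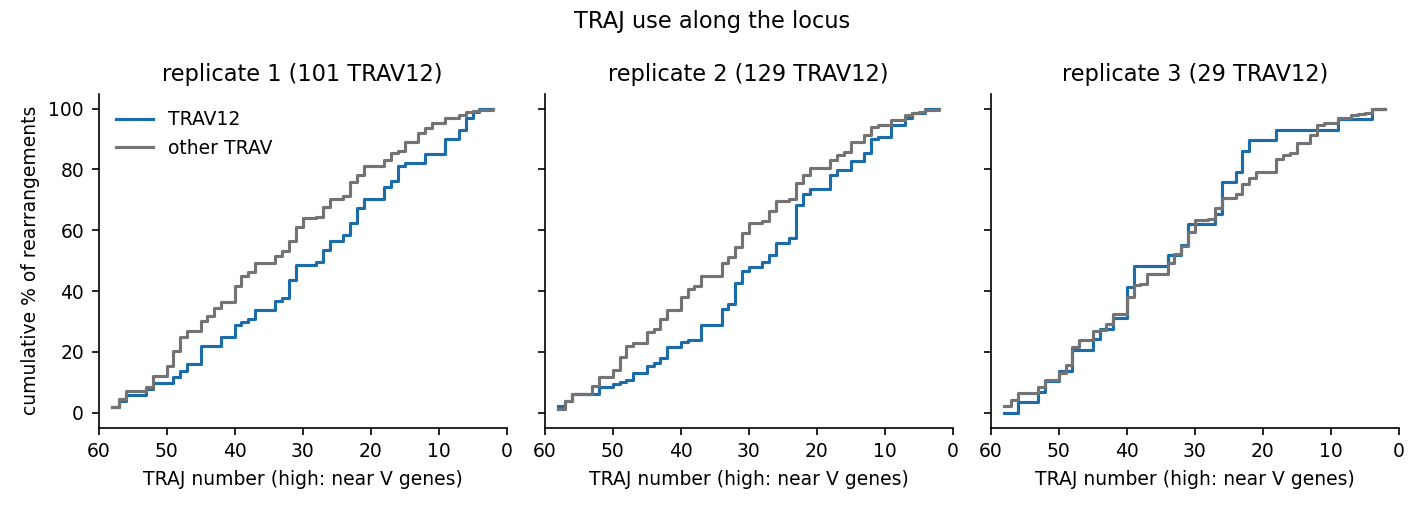
Cumulative percent of TRA rearrangements along the TRAJ genes, from the highest number (nearest to the V genes) on the left to the lowest on the right, for TRAV12 (blue) and all other TRAV families (grey) in each library. In replicates 1 and 2 the TRAV12 curve lies below the other over most of the range, and in replicate 3, with 29 TRAV12 rearrangements, the curves cross.

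CDR3 traits of TRAV12 chains lay close to those of other TRAs. Mean CDR3 length was 13.63, 13.78 and 14.03 amino acids in replicates 1, 2 and 3, against 13.56, 13.59 and 13.58, a difference of 0.24 ± 0.20 amino acids (SD, n = 3, exact permutation p = 0.25, the smallest it can give). Lengths of 13 and 14 were the most frequent, with 68 and 64 of 259 rearrangements. Net charge was lysines and arginines minus aspartates and glutamates over the CDR3. It averaged 0.89, 0.90 and 0.59, against 0.72, 0.73 and 0.69, so that TRAV12 was higher in replicates 1 and 2 and lower in replicate 3 (difference 0.08 ± 0.16, exact permutation p = 0.50). The mean Kyte-Doolittle hydropathy of the middle of the CDR3, without 4 residues at each end, was -1.301, -1.373 and -1.486, against -1.312, -1.337 and -1.303 (difference -0.07 ± 0.10, exact permutation p = 0.50).

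In cells with exactly 1 TRA and 1 TRB, TRAV12 chains were not found with TRBV31. A paired clone was a distinct TRA and TRB combination in such cells, of which there were 2582, with 194 TRAV12 clones (65, 107 and 22 in replicates 1, 2 and 3). TRBV31, the β chain V gene that lies beyond the constant regions in inverted orientation, was in 0 of the 194, where a limit of 3 counts allows a share of up to 1.55%. In other TRAV families it was in 52 of 865, 72 of 1229 and 12 of 294 clones, or 6.01%, 5.86% and 4.08%. Expected were 10.2 TRAV12 clones (exact stratified p = 3.25e-05, adjusted p = 0.0055), and the share was lower in 3 of 3 libraries. In all, 3 of 170 tested TRAV family and TRBV pairs passed (1.76%), 2 of them among the 16 TRAV12 pairs tested and the third TRAV6 with TRBV13-3, and 20 had an unadjusted p under 0.05. Among the other 10 families tested with TRBV31, observed counts ranged from 0.53 to 1.64 times the expected. When cells with several chains were included, 5 of the 275 cells with TRBV31 also had a TRAV12 chain, 4 in replicate 1 and 1 in replicate 2. Each of the 5 had a second TRA or a second TRB, so that which chains pair there cannot be told apart.

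TRBV10 was found with TRAV12 more often than expected. It was in 6 of 65, 8 of 107 and 3 of 22 TRAV12 clones in replicates 1, 2 and 3, or 9.23%, 7.48% and 13.6%, against 3.70%, 3.34% and 2.38% of clones of other families. The 17 clones compare with 7.28 expected, a ratio of 2.34 (exact stratified p = 6.57e-04, adjusted p = 0.037), and the share was higher in 3 of 3 libraries. The test treats paired clones as independent, although a TRA rearrangement found with several TRBs counts more than once. This holds for a TRAJ9 chain of replicate 2 described below. TRAV12D-2 was the α gene in 12 of the 17, and in 95 of all 194 TRAV12 clones. Of those 12, 8 belong to the TRAJ9 group described below, which was noticed in the data. With a minimum of 3 UMIs per contig neither pair passed (adjusted p = 0.088 for each), and without replicate 1 TRBV31 did not (0.056 in the exact stratified test), and TRBV10 there, like both pairs without replicate 2, went untested with under 5 clones expected. In the same exact test TRBV10 missed the threshold without replicate 3 (adjusted p = 0.180) and with amino acid CDR3s (0.063), and TRBV31 passed in both (0.012 and 0.0056).

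The other frequent partners were the ambiguous name TRBV12-2+TRBV13-2 (29 clones), TRBV5 (19), TRBV16 (17) and TRBV13-3 (16). For TRBV12-2+TRBV13-2, 20.6 were expected, with more in each library (exact p = 0.052, adjusted p = 0.406). TRBV5 had 20.3 expected, TRBV16 13.6 and TRBV13-3 14.8, and none passed.

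**Figure D5:**
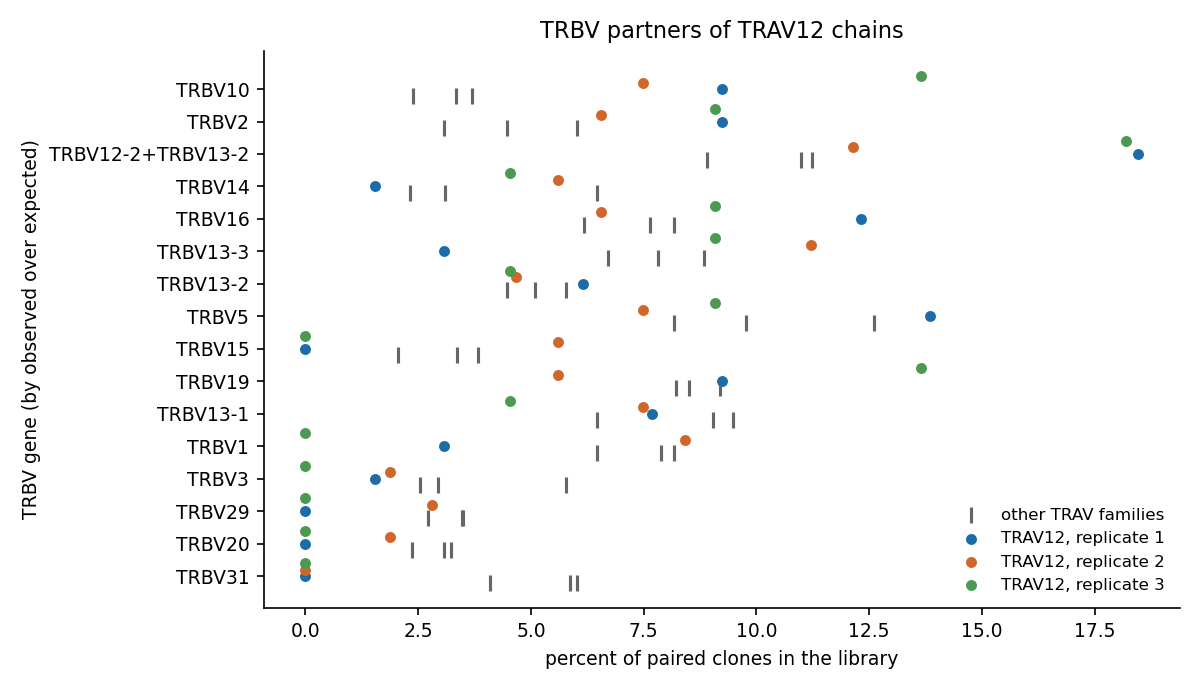
Percent of paired clones that used each of the 16 tested TRBV genes, for TRAV12 (coloured points, 1 per library, spread vertically for legibility) and for all other TRAV families (grey ticks, 1 per library). TRBV31 lies at 0 in all 3 TRAV12 sets, and all 3 TRBV10 points lie to the right of the ticks of other families.

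Of the 17 TRAV12 clones with TRBV10, 8 used the same J gene, TRAJ9. Of the 12 TRAV12 clones with TRAJ9, 8 had TRBV10 (2 of 5, 5 of 6 and 1 of 1 in replicates 1, 2 and 3). TRBV10 was in 9 of 182 TRAV12 clones with another TRAJ (4.95%), in 1 of 46 TRAJ9 clones of other TRAV families (2.17%) and in 79 of 2342 remaining clones (3.37%). The 8 clones came from 16 cells and all 3 libraries. This group was noticed in the data, so its counts are a description without a test. Without cells with a TRAJ9 chain, TRBV10 was in 9 TRAV12 clones where 6.31 were expected. This fall cannot be tested, because the group left out was noticed for its TRBV10 clones. TRBV31, which did not define the group, was in 0 where 9.61 were expected (exact stratified test, adjusted p = 0.014).

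The α chains of these 8 clones were alike. All used TRAV12D-2, had 13 amino acids and ended in NMGYKLTF, with glycine before it, so that they differed only in the residue after CAL. In replicates 2 and 3, where the V region is given, each TRAV12 clone with TRAJ9 had the TTYSPF form. In replicate 1 the CDR3s of the TRAV12D-2 clones with TRAJ9 began with the tgtgctttg that goes with it. A replicate 1 clone named TRAV12D-3 had this start too, but CDR3s of the TIYSNAF regions also have it, so its form is not known. The α chains of the 8 clones had 4 nucleotide sequences, shown because they differ at few bases. Capitals mark bases that match neither a reference TRAV12 end nor TRAJ9 (chr14:54209393-54209450, plus strand), which is printed first.

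TRAJ9, reference: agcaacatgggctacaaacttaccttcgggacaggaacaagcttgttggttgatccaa

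α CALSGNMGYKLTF, replicates 1, 2 and 3: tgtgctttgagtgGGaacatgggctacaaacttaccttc

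α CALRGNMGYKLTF, replicate 2: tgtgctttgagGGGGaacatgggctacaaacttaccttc

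α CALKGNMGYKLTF, replicate 2: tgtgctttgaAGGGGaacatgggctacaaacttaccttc

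α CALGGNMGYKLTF, replicate 1: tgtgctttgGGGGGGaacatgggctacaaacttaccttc

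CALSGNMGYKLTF was encoded by the same 39 bases in all 3 libraries, and was in 1, 4 and 2 cells of replicates 1, 2 and 3. The capital G just before aacatgggc may not be an added base, since 47 of 49 TRAJ9 rearrangements of any TRAV family that reach it had G where the reference has C. In these clones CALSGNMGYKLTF was joined to 5 different TRBs, 1 in replicate 1, 3 in replicate 2 and 1 in replicate 3. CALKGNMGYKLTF had 7 cells with its TRB in replicate 2, and the other clones had 1 or 2 cells each. The β chains differed in every clone but shared a stretch. The 8 TRBV10 CDR3s follow, with capitals for bases outside both the modal first 11 bases of TRBV10 CDR3s, found in 94.2% of them, and the reference TRBJ gene. The D segment TRBD1 (chr6:41533201-41533212, plus strand) stands first for comparison.

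TRBD1, reference: gggacagggggc

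β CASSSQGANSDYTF, TRBJ1-2, replicate 1: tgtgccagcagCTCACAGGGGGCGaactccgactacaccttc

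β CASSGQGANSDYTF, TRBJ1-2, replicate 1: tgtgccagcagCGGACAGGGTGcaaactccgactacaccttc

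β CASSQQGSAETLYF, TRBJ2-3, replicate 2: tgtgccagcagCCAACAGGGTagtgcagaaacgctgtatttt

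β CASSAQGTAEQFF, TRBJ2-1, replicate 2: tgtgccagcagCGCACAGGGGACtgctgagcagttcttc

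β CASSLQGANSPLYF, TRBJ1-6, replicate 2: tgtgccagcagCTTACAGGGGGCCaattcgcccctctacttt

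β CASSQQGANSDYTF, TRBJ1-2, replicate 2: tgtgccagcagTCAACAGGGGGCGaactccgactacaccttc

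β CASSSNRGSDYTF, TRBJ1-2, replicate 2: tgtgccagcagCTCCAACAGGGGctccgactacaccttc

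β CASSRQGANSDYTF, TRBJ1-2, replicate 3: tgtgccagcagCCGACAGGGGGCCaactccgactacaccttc

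Glutamine and glycine stood at positions 6 and 7 of the CDR3, counted from the cysteine as 1, in 7 of the 8, and 5 of the 8 used TRBJ1-2. Among all 137 TRBV10 rearrangements, 12 (8.76%) had a CDR3 that begins CASS, any residue, glutamine and glycine. Of the 10 paired clones with such a TRB, 7 had TRAV12 with TRAJ9. All 8 β CDR3s held the 6 bases ACAGGG on the coding strand, and shared 6 to 10 bases in a row with TRBD1, which contains them. The same 6 bases were in 19.0% of all 3872 TRB rearrangements and in 26.3% of those with TRBV10. This motif and the glutamine and glycine were both picked after the sequences were seen, from clones that these background counts include. The remaining TRAV12 clones with TRAJ9 used TRBV12-2+TRBV13-2 (2, in replicate 1) and TRBV14 (1 each in replicates 1 and 2), and their TRBs lacked the glutamine and glycine. One of them was the only one whose α was not TRAV12D-2 by name, a TRAV12D-3 chain with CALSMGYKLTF. Over all cells, 23 had a TRAV12 chain with TRAJ9 (6, 15 and 2), of which 3, 13 and 2 also had a TRBV10 chain.

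Few other TRAV12 CDR3s recurred between libraries. Of 242 combinations of amino acid CDR3 and J gene, 10 (4.13%, interval 2.00% to 7.47%) were in more than 1 library, against 101 of 2889 (3.50%, 2.86% to 4.23%) among other TRAs counted within their V family. The intervals overlap. Of the 10, 3 were TRAJ9 chains of TRAV12D-2, namely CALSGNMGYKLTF, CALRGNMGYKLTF and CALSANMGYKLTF. The most cells, 9, belonged to a TRAV12-1 chain with TRAJ52, with 8 in replicate 2 and 1 in replicate 3. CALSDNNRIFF with TRAJ31 was found in 1 cell of replicate 1 and 5 of replicate 2, under the names TRAV12-3 and TRAV12D-2 and with 2 nucleotide sequences. A TRAJ23 chain was in 1 cell of each library. The remaining 6, with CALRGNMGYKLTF and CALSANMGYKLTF among them, were tied at 2 cells each. In 4 of the 10 the same nucleotide sequence was found in both or all libraries concerned.

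A second TRA was found in 9.95% of TRAV12-bearing cells of replicate 1 (39 of 392), 12.0% of replicate 2 (30 of 249) and 8.11% of replicate 3 (3 of 37), against 9.71%, 9.03% and 4.01% of other TRA-bearing cells. A second α chain is common in T cells because both α alleles can rearrange. In 2 cells of replicate 1 and 3 of replicate 2 both α chains were TRAV12. A second TRB was found in 15, 25 and 0 of the TRAV12-bearing cells of replicates 1, 2 and 3. No doublet caller was run, and whether some cells with several chains are doublets was not tested. No TRB was found in 6.12%, 5.62% and 16.2% of TRAV12-bearing cells, against 6.07%, 7.004% and 13.4% of other TRA-bearing cells, with the highest share in replicate 3, the library with the fewest UMIs per contig.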

How the data were processed

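Per the labels and the study's methods, the authors sequenced 10x Genomics TCR libraries and processed them with Cell Ranger on mm10 (version not given in the sources used here). They deposited, for each contig, counts of UMIs and reads, V and J genes, the CDR3 and the contig's length in bases. Productive TRA and TRB contigs of called cells were used. No doublet caller was run; cells with several chains were kept, except in paired clones, which needed exactly 1 TRA and 1 TRB. Gene expression was not analysed here.

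Whether a TRAV gene or pair deviated was assessed by an exact test, two-sided, of hypergeometric counts convolved over libraries (expected count of at least 5 for pairs, at least 10 rearrangements for expansion), shares between libraries with a Freeman-Halton test, both with Benjamini-Hochberg adjustment over the whole table at 0.05, and traits with sign changes over 3 libraries. The expansion, pair and library tests were also run on these data with gene names or clone sizes shuffled. Shuffling removes any dependence between clones that share a TRA, so this check does not cover it. TRAV12 genes were all named, with the 5 most frequent TRAJ and TRBV partners and ties, pairs that passed, the 3 largest rearrangements per library and the 5 most frequent shared CDR3s. TRAJ genes with an unadjusted p under 0.05, V region forms and the TRAJ9 group were named after their values were seen. Members, lists and tests were chosen with earlier results of these data known. Alternatives are given in the closing section. Junctions and coordinates came from GRCm38 with GENCODE M21, and a junction's J match was the longest CDR3 end found in the J gene. Software was scipy 1.17.1, numpy 2.4.6, pandas 2.3.3 and matplotlib 3.10.9 under Python 3.11.15.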

Additional observations from a re-analysis of the deposited data

How the results depend on the processing

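The alternatives were contigs with at least 3 UMIs, cells with exactly 1 TRA and 1 TRB, amino acid CDR3s, copies of the same number counted as 1 gene, expansion above 2 or 5 cells, and leaving out each library. Of 74 recomputed values, 58 kept their direction and their side of the threshold or their range. The count of TRBV genes that deviated with TRAV12 was 2, and fell to 0 with at least 3 UMIs, to 1 with amino acid CDR3s and to between 0 and 1 when a library was left out. It was 1 without cells carrying a TRAJ9 chain, an alternative chosen after seeing the data that removes clones noticed for their TRBV10. The causes were not tested. Fewer clones remain under each of these alternatives but the amino acid CDR3s. The net charge difference turned to -0.00925 with at least 3 UMIs (main value 0.08, SD 0.16). With exactly 1 TRA and 1 TRB, the share of rearrangements was 7.16% (SD 0.27, against 7.72%). The largest rearrangement had 224 cells with at least 3 UMIs, and the next largest overall had 25. The largest rearrangement decides the mean share of cells, 12.2% ± 6.52, which was 8.06% ± 0.76 without its cells, again an alternative chosen after seeing the data, and 8.43% without replicate 1. The counts of TRAV12 genes or TRAJ partners called stayed at 0 in every alternative run, and these zeros are among the 58 values. The TRAJ partners tested fell from 28 to as few as 5, without replicate 2. With fewer tests a count of 0 says little about how stable the result is. No paired analysis was possible because only 1 condition was sampled. Replicate 3, with 29 TRAV12 rearrangements, limits every comparison by library, and the rearrangement tests do not measure variation between mice.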
